A study of Mus musculus with 10 samples.

Results

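The genes of the unfolded protein response and of protein folding in the endoplasmic reticulum (ER) were followed in macrophages sorted from 4T1 tumours. A list of 35 symbols was matched to the gene names of the deposited count table, and 34 had a row among 46603. The 34 are ER chaperones, disulphide isomerases, components of translocation and of ER-associated degradation (ERAD), the stress sensors, and genes of the ATF4 arm. The remaining symbol, Selenos, stands in the table under its older name Vimp (matched by its Ensembl identifier). Its values are given below. It is left out of the counts of members and counted among the other ERAD genes. 4T1 is a mouse mammary carcinoma line. Tumours were dissociated with collagenase and dispase, and viable cells carrying both CD11B and F4/80 were sorted into a fraction with surface podoplanin (PDPN), the PoEMs of the submitters, and one without it, the non-PoEMs. Both fractions came from each of 5 tumours (numbers 1, 2, 4, 5 and 6), which gave 2 groups of 5 libraries. RNA was pre-amplified with SMART-Seq. The sources used here do not give mouse strain, age or tumour site, nor do they say that each tumour came from its own mouse, so p-values measure the spread between these libraries. The comparison of the fractions serves a study of the role of PDPN-positive tumour macrophages in lymphatic vessel growth and matrix remodelling.

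Secretory and membrane proteins fold in the ER with the help of Hsp70- and Hsp90-type chaperones, lectin chaperones that hold glycoproteins, and isomerases that form disulphide bonds. When unfolded proteins build up, the sensors ATF6, IRE1 (gene Ern1) and PERK (gene Eif2ak3) are activated: ATF6 is cleaved into a transcription factor, IRE1 splices the mRNA of Xbp1, and PERK phosphorylates eIF2α, which favours translation of ATF4. The targets include chaperone and ERAD genes on one side, and genes of amino acid supply and of recovery from translational arrest on the other. Cleavage, splicing and phosphorylation are not visible in counts per gene, so the values below are mRNA levels only.

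Library totals ran from 12597829 to 15406722 counts, so that 1 count was worth 0.0649 to 0.0794 CPM, the unit in which counts are set to a common library size. Libraries were also scaled with TMM, a factor that balances their composition. Pdpn, the gene of the sort, measured 10.96 to 29.1 CPM in PDPN-negative and 189.8 to 248 CPM in PDPN-positive libraries. Macrophage markers were abundant in both fractions: the complement genes C1qa and C1qc, typical of tissue macrophages, measured 3631 ± 204 and 3066 ± 165 CPM in PDPN-negative against 3820.4 ± 142 and 3121 ± 84.8 CPM in PDPN-positive libraries (SD, n = 5 each), and of the 10 macrophage markers 1 was higher and 1 lower. Markers of other lineages also differed between the fractions. Of 14 fibroblast markers, 13 were higher in PDPN-positive libraries (summed over the list, 334 to 544 CPM against 41.5 to 53.8 CPM in the PDPN-negative ones). Of the tested markers, 4 of 5 for eosinophils, 8 of 9 for neutrophils and 4 of 9 for monocytes were lower. So were 11 of 16 immediate early and other genes that tissue digestion is known to induce, called the immediate early list here. Summed over that list, PDPN-positive libraries reached 9966 to 10498 CPM against 14112 to 17875 CPM in the PDPN-negative ones. Its heat shock genes Hspa1b and Hspa1a were not called but had higher means, 45.9 ± 13.9 against 95.3 ± 41.6 and 51.7 ± 9.64 against 87.1 ± 35.4 CPM (SD, n = 5 each, PDPN-negative first, adjusted p in edgeR = 0.0582 and 0.0927). DESeq2 called 15 of the 16, 13 of them lower. No marker of the fibroblast list and no immediate early gene was at 0 in all libraries. In bulk libraries fewer cells of a type and less RNA per cell cannot be told apart. Nor do such libraries show which cells the RNA of a marker came from.

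P4hb, Pdia4 and Trib3 were higher in PDPN-positive libraries, and Atf6, Herpud1 and Ppp1r15a were lower. A gene was called higher or lower where its p from edgeR's quasi-likelihood test, adjusted by Benjamini-Hochberg over all genes tested, was under 0.05. Of the 34 members, 33 passed the filter on low counts, so 6 of 33 were called and 27 were not, beside 13.6% of all 13595 genes tested. The 3 higher members compare with 6.83% of all genes called higher, and the 3 lower with 6.77% called lower. In these 6 genes the 2 groups did not overlap in CPM, 3 with the PDPN-positive libraries above and 3 with them below; among all genes tested the groups did not overlap in 10.5% (5.38% above, 5.13% below). The fibroblast and immediate early genes named above moved between the same groups, beside each of these 6 members. The median log2 fold change of the 33 was 0.03, beside 0.01 for all genes tested, and the median size of the change was 0.11, beside 0.14. The 27 members not called lay between -0.25 and 0.32 on the log2 scale. Within 5 of 5 tumours, 11 of the 33 were higher and 4 lower, beside 2363 higher and 2394 lower of all 13595 genes tested. In a fit that blocks on the tumour, 12 members were called (7 higher, 5 lower), beside 28.2% of all genes (13.8% higher, 14.3% lower). The added members were Hsp90b1, Sdf2l1, Calr and Pdia6 (higher) and Ern1 and Ddit3 (lower). DESeq2 with the same block called the 4 higher ones and neither Ern1 nor Ddit3; of these 6, Sdf2l1 alone kept the call in the blocked fit without each tumour in turn.

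**Figure D1:**
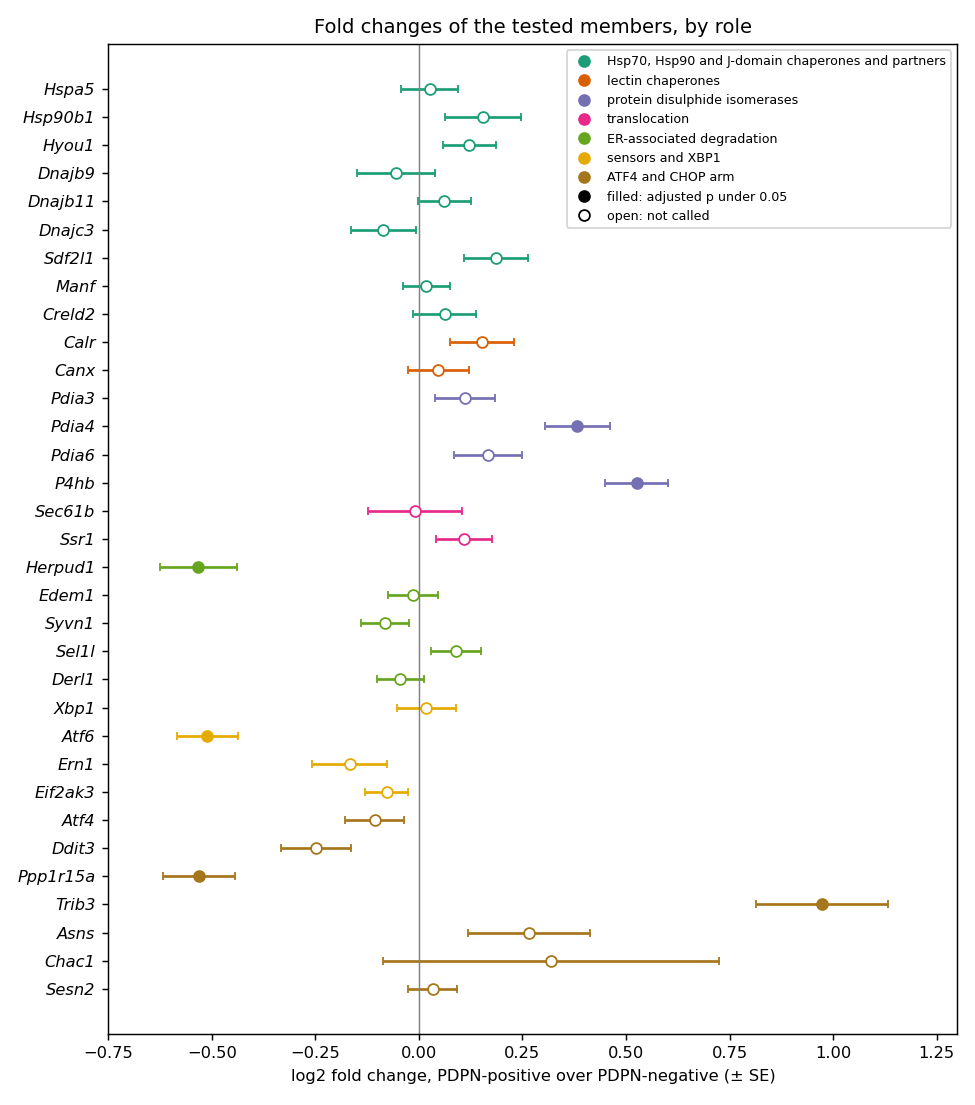
Log2 fold change (x axis, PDPN-positive over PDPN-negative) with its SE for the 33 tested members (y axis), coloured by role, from 5 libraries a group. P4hb, Pdia4 and Trib3 lie to the right and Herpud1, Atf6 and Ppp1r15a to the left as filled points (adjusted p under 0.05); the Hsp70 and Hsp90 chaperones have no filled point.

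Levels between genes are compared here per kilobase of annotated exon (CPM per kb, exon length from GENCODE M21, all isoforms merged). In PDPN-negative libraries the most abundant members were P4hb at 473, Calr at 441, Hspa5 at 274, Pdia3 at 241 and Hsp90b1 at 224 CPM per kb, against a median of 39.5 over the 33 tested members. The sensors were far lower, with Atf6 at 20.9, Ern1 at 11.5 and Eif2ak3 at 8.38 CPM per kb. At the bottom were Trib3 at 1.07, Chac1 at 0.390 and Derl3 at 0.249 CPM per kb. In PDPN-positive libraries P4hb stood at 681 and Calr at 490.0 CPM per kb, in the same order.

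None of the 9 genes for the Hsp70 and Hsp90 chaperones of the ER and their partners passed the edgeR test without the tumour as a block. With the block, 2 of them (Hsp90b1 and Sdf2l1) were higher. Without the block and with no adjustment, 1 of the 9 (Sdf2l1) had p under 0.05, and DESeq2 without the block called 0. Hspa5, which encodes the master chaperone BiP (ENSMUSG00000026864, chromosome 2, 34771970 to 34777547, plus strand of GRCm38), measured 1211, 1127, 1226, 1188 and 1033 CPM in the PDPN-negative libraries of tumours 1, 2, 4, 5 and 6 and 1250.1, 1109, 1223, 1207 and 1101 CPM in the PDPN-positive ones. Both ranges covered nearly the same span, and the log2 fold change was 0.03 ± 0.07 (SE, adjusted p in edgeR = 0.848). Hsp90b1, the gene of the ER-resident Hsp90 (GRP94), measured 989, 891, 1024, 827 and 775 CPM in PDPN-negative and 1007, 1026, 1116, 1005 and 864 CPM in PDPN-positive libraries. In each tumour the PDPN-positive library had more of it, by 1.02 to 1.21 times, while the groups overlapped (log2 fold change 0.16 ± 0.09 SE, adjusted p in edgeR = 0.292, and 0.0289 with the tumour as a block).

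Sdf2l1, which encodes a partner of BiP and its J-domain proteins, showed the same layout, with 94.0, 94.6, 104, 96.2 and 82.2 CPM in PDPN-negative and 108, 99.7, 123, 108 and 96.7 CPM in PDPN-positive libraries. It was higher within 5 of 5 tumours (log2 fold change 0.19 ± 0.08 SE, adjusted p in edgeR = 0.132, and 0.00741 with the block). Hyou1, the gene of an Hsp70-like nucleotide exchange factor for BiP, measured 231 ± 10.5 against 251 ± 19.5 CPM (SD, n = 5 each; PDPN-negative first, here and below) and was also higher within 5 of 5 tumours, with an adjusted p in edgeR of 0.236, and 0.0608 with the block. Of the J-domain co-chaperone genes, Dnajb11 had a log2 value of 0.06 ± 0.06, Dnajb9 of -0.06 ± 0.09 and Dnajc3 of -0.09 ± 0.08 (SE, adjusted p in edgeR = 0.585, 0.745 and 0.521). The 2 secreted stress proteins of the list, Manf and Creld2, measured 156 ± 9.55 against 158 ± 6.49 CPM and 54.0 ± 3.49 against 56.4 ± 5.81 CPM. Neither passed the edgeR test (adjusted p = 0.876 and 0.637).

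Of the lectin chaperones, Calr, which encodes soluble calreticulin, measured 1312, 1251, 1409, 1248 and 1132 CPM in the PDPN-negative and 1413, 1383, 1547, 1458 and 1255 CPM in the PDPN-positive libraries, tumours in the order above. The PDPN-positive library was the higher one in each tumour, by 1.08 to 1.17 times, and the groups overlapped (log2 fold change 0.15 ± 0.08 SE, adjusted p in edgeR = 0.219, and 0.0234 with the tumour as a block). Canx, the gene of its membrane-bound relative calnexin, measured 533 ± 53.0 against 551 ± 26.5 CPM and did not pass the edgeR test in either fit (adjusted p = 0.728 and 0.475).

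The ER stress response element (ERSE), the sequence bound by ATF6 together with NF-Y, is known from the promoters of chaperone genes, and its exact matches are shown to let the values be read against them. RefSeq promoter windows (GRCm38.p6) were found for 30 of the 34 members; Manf, Derl1, Hyou1 and Atf6 had no entry. In the 250 bases before the transcript start, the letters CCAAT, then 9 bases of any kind, then CCACG, on either strand, were present in 9 of the 30 members and in 35 of 27025 genes with a window (0.13%, and 0.113% of 32851 windows). The 10 matches, 2 of them upstream of Hsp90b1, are shown with 5 bases on each side, 5′ to 3′ along the gene, with the fixed letters of the element in capitals. In Hspa5 the match begins inside the first exon that GENCODE M21 gives the gene, which starts upstream of the RefSeq start:
Hspa5, ERSE, chr2:34772020-34772048, plus strand: cttcaCCAATcggaggcctCCACGacggg
Calr, ERSE, chr8:84847070-84847098, minus strand: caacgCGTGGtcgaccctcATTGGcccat
Derl3, ERSE, chr10:75893237-75893265, plus strand: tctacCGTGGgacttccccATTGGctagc
Hsp90b1, ERSE, chr10:86705633-86705661, minus strand: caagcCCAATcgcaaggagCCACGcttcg
Hsp90b1, ERSE, chr10:86705528-86705556, minus strand: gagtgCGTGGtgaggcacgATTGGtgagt
Canx, ERSE, chr11:50325795-50325823, minus strand: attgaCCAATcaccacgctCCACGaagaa
Pdia6, ERSE, chr12:17266486-17266514, plus strand: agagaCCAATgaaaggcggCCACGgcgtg
Dnajc3, ERSE, chr14:118937822-118937850, plus strand: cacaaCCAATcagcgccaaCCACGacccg
Creld2, ERSE, chr15:88819515-88819543, plus strand: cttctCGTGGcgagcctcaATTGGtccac
Syvn1, ERSE, chr19:6046527-6046555, plus strand: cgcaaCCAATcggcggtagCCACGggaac

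In Calr, Derl3, Creld2 and the nearer match of Hsp90b1 the element reads on the opposite strand, as CGTGG followed by ATTGG. Of these 9 members 8 were tested, and 0 were called (edgeR; 0 also with no adjustment, 0 by DESeq2, and 3 with the tumour as a block). The 3 were Hsp90b1, Calr and Pdia6, all higher, beside 28.2% of all genes called with the block (13.8% higher). The log2 fold changes of the 8 ran from -0.09 for Dnajc3 to 0.17 for Pdia6. Across all genes, 13 with the exact element were tested, these 8 members among them. Of the 13, 1 was called, or 7.69%, beside 13.6% of all genes tested. With the tumour as a block 4 of the 13 were called, beside 28.2% of all genes. A match is a description of the letters, and no binding was measured.

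Further elements of this response were searched in the same windows, and exact matches were present in 4 members. They are the ERSE-II (ATTGG, 1 base of any kind, then CCACG), the core of the CARE element that ATF4 binds with C/EBP partners (TGATGNAA, searched after a longer form gave no match; the longer form, TGATGNAAT, matched no member and 0.816% of all windows) and the CRE (TGACGTCA), again on both strands. They occur in 0.0304%, 3.45% and 1.55% of all windows, respectively. The XBP1-type element TGACGTGG, present in 0.563% of all windows, matched no member. The matches are printed with 5 bases on each side where the window allows, fixed letters in capitals. The match of Asns lies inside the gene as GENCODE M21 gives it, which likewise starts upstream of the RefSeq start:
Herpud1, ERSE-II, chr8:94386372-94386392, plus strand: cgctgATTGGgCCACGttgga
Chac1, CARE core, chr2:119351044-119351061, plus strand: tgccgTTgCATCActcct
Asns, CARE core, chr6:7693220-7693237, minus strand: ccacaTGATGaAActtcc
Herpud1, CARE core, chr8:94386312-94386329, plus strand: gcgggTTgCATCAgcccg
Ppp1r15a, CRE, chr7:45526269-45526285, minus strand: tccggTGACGTCAgcac

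**Figure D2:**
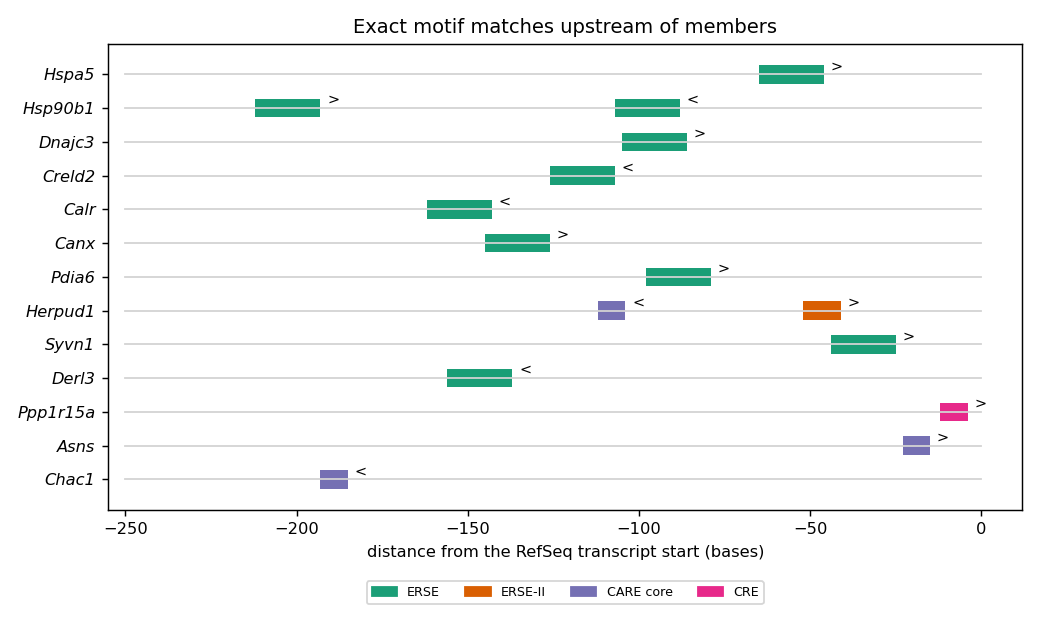
Exact matches (coloured bars) by distance from the RefSeq transcript start in bases (x axis) for the 13 members with a match (y axis). Arrowheads give the strand of the motif relative to the gene; the ERSE matches begin between -212 and -44, and the CRE of Ppp1r15a lies closest to the start.

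Among the 4 disulphide isomerases P4hb and Pdia4 rose, and Pdia3 and Pdia6 did not pass the test. All 4 were higher within 5 of 5 tumours, as were 2363 of all 13595 genes tested. P4hb encodes protein disulphide isomerase (PDI), which is also the β subunit of the collagen prolyl 4-hydroxylases (ENSMUSG00000025130, chromosome 11, 120560298 to 120573253, minus strand of GRCm38). It measured 1556, 1254, 1271, 1289.6 and 1399 CPM in PDPN-negative and 1986, 1775, 1959, 2086 and 1941 CPM in PDPN-positive libraries of tumours 1, 2, 4, 5 and 6. Every PDPN-positive library lay above every PDPN-negative one, and the ratio within tumours ran from 1.28 to 1.62. The fold change was 1.44 (log2 0.53 ± 0.08 SE, adjusted p in edgeR = 0.000778; at most 0.00328 over the alternatives run). Fibroblast markers, which include collagen genes, rose in the same libraries: Col1a1 from 7.91 ± 2.296 to 122 ± 23.0 CPM and Col3a1 from 8.46 ± 2.76 to 141 ± 30.7 CPM (SD, n = 5 each). The part of these markers in the rise of P4hb was not tested.

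Pdia4, the gene of an isomerase with several thioredoxin-like domains (ERp72; ENSMUSG00000025823, chromosome 6, 47796141 to 47813430, minus strand of GRCm38), measured 224, 198, 256, 223 and 215 CPM in PDPN-negative and 259.6, 272, 305, 319 and 302 CPM in PDPN-positive libraries. The groups did not overlap, although the lowest PDPN-positive library (tumour 1) lay only just above the highest PDPN-negative one (tumour 4). Its fold change was 1.304 (log2 0.38 ± 0.08 SE, adjusted p in edgeR = 0.00689; at most 0.0238 over the alternatives run). Fibroblast markers moved with it as with P4hb, and their part was not tested. Pdia6 measured 406, 374, 454, 384 and 349.6 against 422, 416, 489, 478 and 404 CPM, overlapping between groups (log2 fold change 0.17 ± 0.08 SE, adjusted p in edgeR = 0.206, and 0.0200 with the tumour as a block). Pdia3, the isomerase gene whose product works with calnexin and calreticulin on glycoproteins, measured 756 ± 64.2 against 817 ± 42.3 CPM (adjusted p in edgeR = 0.338, and 0.0852 with the block).

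The upstream sequences of the 2 isomerase genes that rose are printed. Neither holds an exact ERSE, ERSE-II, CARE core, CRE or XBP1-type element within 250 bases before the RefSeq start. For Pdia4 that start lies upstream of the one GENCODE M21 gives, and the bases between the 2 starts were not searched. Capitals mark the NF-Y part (CCAAT) and the other part (CCACG) of the ERSE, on either strand. P4hb has 1 copy of each part, and Pdia4 has 3 copies of the NF-Y part alone. The NF-Y part is present in 33.8% and the other part in 28.3% of all windows. Both sequences are from RefSeq, GRCm38.p6, and end at the base before the transcript start:
P4hb, chr11:120573254-120573503, minus strand: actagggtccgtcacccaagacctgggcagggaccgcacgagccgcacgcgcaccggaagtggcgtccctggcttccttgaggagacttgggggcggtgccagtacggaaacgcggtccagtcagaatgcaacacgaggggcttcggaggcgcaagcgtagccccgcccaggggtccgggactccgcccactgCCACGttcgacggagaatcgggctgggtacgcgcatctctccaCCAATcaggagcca
Pdia4, chr6:47813513-47813762, minus strand: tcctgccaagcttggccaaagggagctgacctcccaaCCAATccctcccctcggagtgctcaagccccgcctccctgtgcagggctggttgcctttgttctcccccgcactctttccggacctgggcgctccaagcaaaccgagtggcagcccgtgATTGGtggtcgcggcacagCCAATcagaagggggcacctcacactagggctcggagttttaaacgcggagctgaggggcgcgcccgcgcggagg

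**Figure D3:**
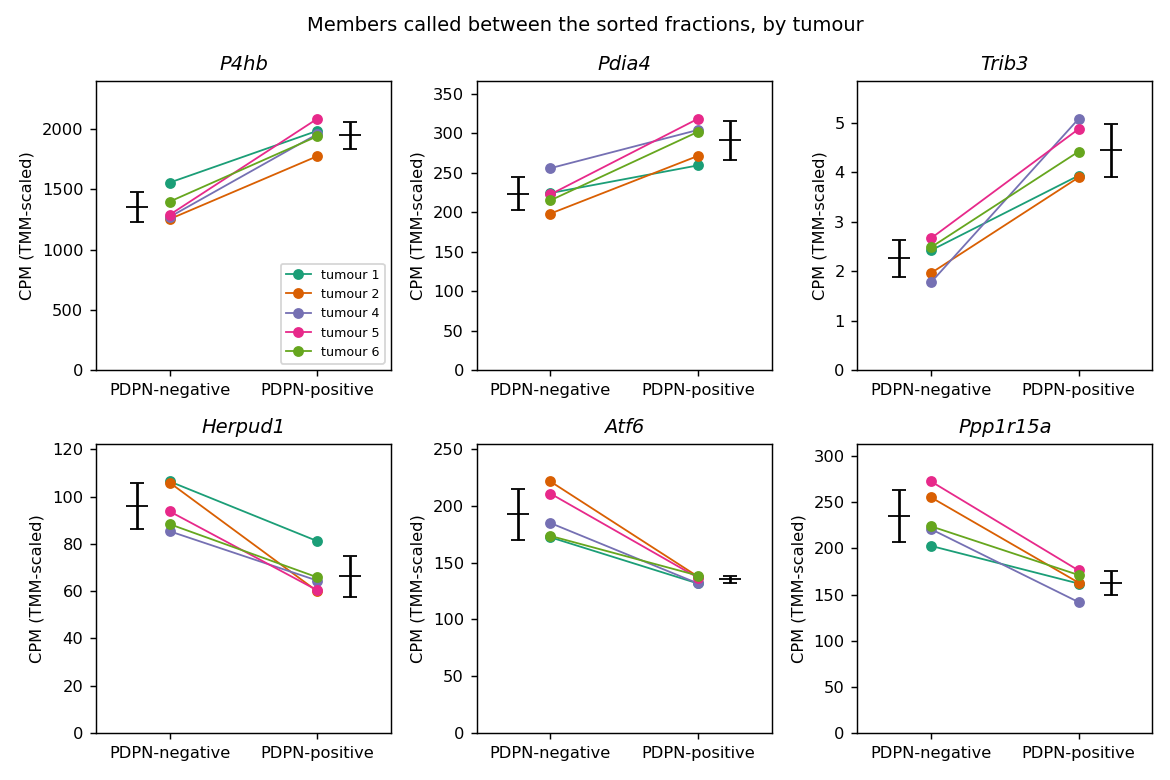
Level in TMM-scaled CPM (y axes, from 0) of the 6 called members in PDPN-negative and PDPN-positive libraries. Lines join the 2 libraries of a tumour and bars beside the points give the mean ± SD of 5 libraries; all 5 lines rise for P4hb, Pdia4 and Trib3 and fall for Herpud1, Atf6 and Ppp1r15a.

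The chaperone, lectin and isomerase genes also varied across tumours. Of these 15 genes, 10 were highest in tumour 4 among PDPN-negative libraries and 9 among PDPN-positive libraries. The lowest level lay in tumour 6 for 9 and 10 of them, respectively. Their summed level ran from 6931 CPM in tumour 6 to 8069.7 CPM in tumour 4 among PDPN-negative libraries, and from 8055 to 9113 CPM, in the same 2 tumours, among PDPN-positive ones. Tumour 4 was the highest library of its fraction for Calr and Hsp90b1 as well, and tumour 6 the lowest, in both fractions. No count over all genes stands beside these. Over all genes tested, the libraries of a tumour also deviated together from their group means (correlations 0.257 to 0.552).

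Neither gene of protein entry into the ER passed the test. Sec61b, for a subunit of the translocation channel, measured 27.8 ± 4.73 against 27.7 ± 2.42 CPM, and Ssr1, for a subunit of the associated TRAP complex, 208 ± 18.0 against 224 ± 11.4 CPM (SD, n = 5 each, adjusted p in edgeR = 0.968 and 0.327). Neither had an unadjusted p under 0.05, and DESeq2 called 0 of the 2.

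Among ERAD genes Herpud1 fell and the other tested members did not pass the test. Herpud1 encodes a membrane protein that organises the HRD1 degradation complex, and its promoter holds the ERSE-II and the CARE core printed above (ENSMUSG00000031770, chromosome 8, 94386438 to 94395377, plus strand of GRCm38). It measured 106, 106, 85.3, 93.7 and 88.3 CPM in PDPN-negative and 81.2, 59.9, 64.5, 60.3 and 65.8 CPM in PDPN-positive libraries. The groups did not overlap, and tumour 1 was the highest of the PDPN-positive libraries by a wide gap. The fold change was 0.692 (log2 -0.53 ± 0.09 SE, adjusted p in edgeR = 0.00260; at most 0.00921 over the alternatives run). Immediate early genes fell in the same libraries, and the 2 most abundant of them were Junb, which fell from 2599 ± 157 to 1827 ± 80.4 CPM, and Zfp36, which fell from 2454 ± 282 to 1663 ± 106 CPM (SD, n = 5 each). Their part in the fall of Herpud1 was not tested.

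None of the other 4 tested ERAD genes passed the test. Syvn1, the gene of the ubiquitin ligase HRD1, measured 80.1 ± 4.83 against 75.8 ± 3.62 CPM, and Sel1l, for its adaptor, 183 ± 10.8 against 195 ± 11.2 CPM (adjusted p in edgeR = 0.389 and 0.366). Edem1, which encodes a lectin that directs glycoproteins to degradation, had a log2 value of -0.01 ± 0.06, and Derl1, for a membrane protein of the exit channel, of -0.05 ± 0.06 (SE, adjusted p in edgeR = 0.905 and 0.652). Derl1 was lower within 5 of 5 tumours, by a ratio of 0.930 to 0.986. Selenos (Vimp in the table), the gene of a selenoprotein that recruits the extraction ATPase, measured 56.3 ± 3.15 against 57.3 ± 6.35 CPM (adjusted p in edgeR = 0.878).

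Derl3, a derlin gene typical of secretory cells such as plasma cells, lay below the filter with 35 counts over the PDPN-negative and 68 over the PDPN-positive libraries. It measured 0.469, 0.720, 0.427, 0.577 and 0.293 CPM in PDPN-negative and 0.632, 1.59, 0.847, 1.14 and 0.698 CPM in PDPN-positive libraries, tumours in the same order. The PDPN-positive library was the higher one in 5 of 5 tumours, while the groups overlapped. The mean difference was 0.485 CPM (exact permutation test, two-sided p = 0.0238, the only gene tested this way). Swapping labels within tumours instead gave an exact p of 0.0625, the lowest that 5 pairs can reach. Without PDPN-negative tumour 1, 4 or 6 the exact permutation p was 0.0635. Of 3 B and plasma cell markers tested in the same libraries, Cd79b and Ighm were lower. The plasma cell gene Sdc1 measured 14.9 ± 4.54 against 15.8 ± 1.63 CPM (adjusted p in edgeR = 0.779) and was higher in 4 of 5 tumours. Ighm, the heavy chain gene of immunoglobulin M, measured 125 ± 63.5 against 35.9 ± 16.9 CPM (SD, n = 5 each). Ighg1, the next most abundant marker of the list, lay below the filter at 26.7 ± 59.4 against 11.5 ± 25.6 CPM. Its libraries ran from 0 to 133 and from 0 to 57.3 CPM. Summed over the list of 14 genes with a row, the markers ran from 63.6 to 504 CPM in the PDPN-negative fraction and from 29.1 to 198 CPM in the PDPN-positive one, and their part in the values of Derl3 was not tested.

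Of the stress sensors, Atf6 fell, and Ern1 and Eif2ak3 did not pass the test. Atf6 encodes the membrane-bound transcription factor that is released by cleavage (ENSMUSG00000026663, chromosome 1, 170704674 to 170867771, minus strand of GRCm38). It measured 172, 221, 185, 211 and 174 CPM in PDPN-negative and 132, 138, 132, 137 and 139 CPM in PDPN-positive libraries. The PDPN-positive libraries lay within a narrow band below every PDPN-negative one, at 135 ± 3.37 against 193 ± 22.4 CPM (SD, n = 5 each). The fold change was 0.702 (log2 -0.51 ± 0.07 SE, adjusted p in edgeR = 0.000781; at most 0.00334 over the alternatives run). Tumours 2 and 5 had the highest Atf6 levels in the PDPN-negative fraction and the largest drops, the ratio within tumours being 0.622 to 0.799. Markers of other myeloid cells moved in the same libraries, 4 of 9 tested being lower for monocytes, 8 of 9 for neutrophils and 4 of 5 for eosinophils. Of the most abundant monocyte markers, the chemokine receptor gene Ccr2 measured 964 ± 139.8 against 424 ± 49.7 CPM and F13a1 731 ± 278 against 894 ± 146 CPM (SD, n = 5 each, adjusted p in edgeR = 2.34e-05 and 0.482). Of the most abundant neutrophil markers, Mmp9 measured 185 ± 83.4 against 350.4 ± 128 CPM and Csf3r 146 ± 30.7 against 85.5 ± 11.9 CPM (adjusted p in edgeR = 0.125 and 0.00550). The monocyte markers reached, summed over the list, 1383 to 1556 CPM against 1508 to 2272 CPM in the PDPN-negative ones. For neutrophil markers the sums were 299 to 636 CPM against 412 to 610.5 CPM in the PDPN-negative ones, and for eosinophil markers 4.76 to 14.4 CPM against 58.6 to 149 CPM in the PDPN-negative ones. The eosinophil genes Prg2, Epx, Ear6 and Ear1 were at 0 in all PDPN-positive libraries. The part of these markers in the fall of Atf6 was not tested.

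Ern1, the gene of IRE1α, measured 92.6, 93.2, 91.9, 114 and 76.6 CPM in PDPN-negative and 78.3, 84.5, 79.8, 93.6 and 81.0 CPM in PDPN-positive libraries. It was lower in 4 of 5 tumours and higher in tumour 6, and the groups overlapped (log2 fold change -0.17 ± 0.09 SE, adjusted p in edgeR = 0.252, and 0.0431 with the tumour as a block). Eif2ak3, the gene of PERK, measured 50.5 ± 1.58 against 47.9 ± 2.24 CPM (adjusted p in edgeR = 0.361). Xbp1, the target of IRE1 splicing, measured 272, 252, 286, 283 and 312 CPM in PDPN-negative and 262, 276, 275, 293 and 316 CPM in PDPN-positive libraries. These values overlapped, and the log2 value was 0.02 ± 0.07 (SE, adjusted p in edgeR = 0.901). Spliced and unspliced Xbp1 mRNA share 1 count here, so the activity of IRE1 cannot be read from it.

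**Figure D4:**
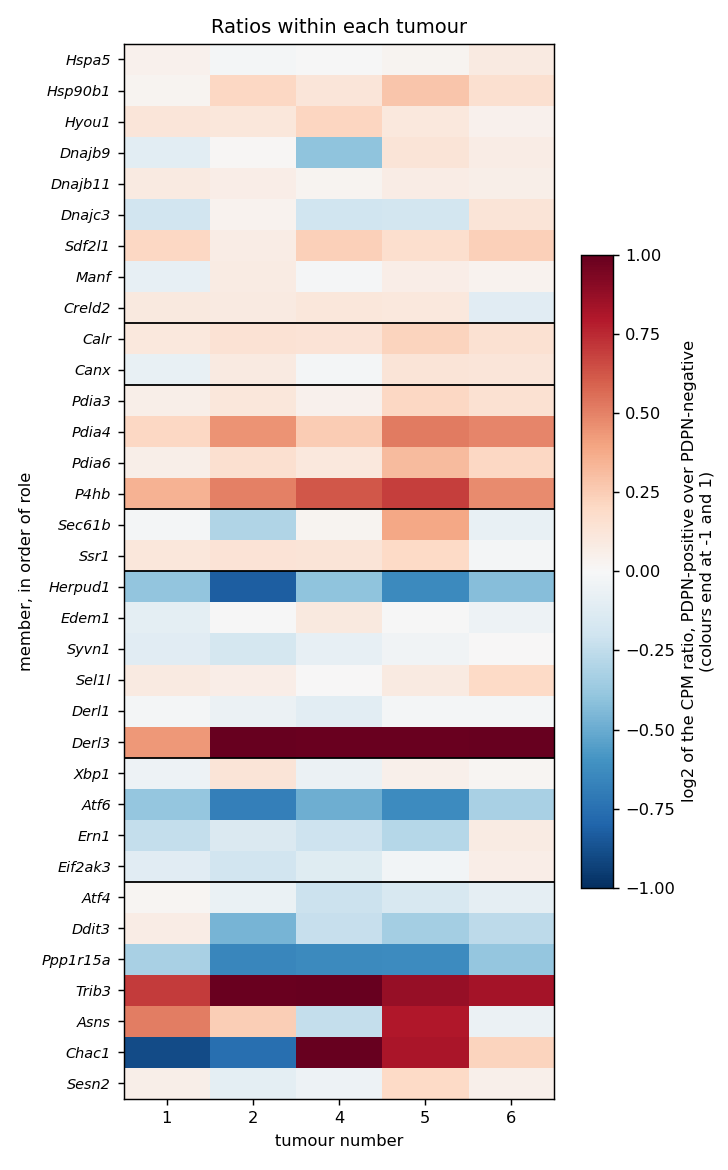
Log2 ratio of PDPN-positive over PDPN-negative CPM (colour) for the 34 members (rows, in order of role, lines between roles) in each tumour (columns). The rows of P4hb, Pdia4 and Trib3 are red and those of Herpud1, Atf6 and Ppp1r15a blue in all 5 tumours; Chac1 and Derl3 rest on few counts.

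In the ATF4 arm Trib3 rose and Ppp1r15a fell. Trib3 encodes a pseudokinase that is induced by ATF4 and CHOP and restrains them (ENSMUSG00000032715, chromosome 2, 152337422 to 152344032, minus strand of GRCm38). It measured 2.42, 1.96, 1.78, 2.67 and 2.49 CPM in PDPN-negative and 3.94, 3.90, 5.08, 4.88 and 4.42 CPM in PDPN-positive libraries. All PDPN-positive values lay above all PDPN-negative ones, from low levels (157 and 309 counts in all). The fold change was 1.96 (log2 0.97 ± 0.16 SE, adjusted p in edgeR = 0.00167; at most 0.00721 over the alternatives run). Fibroblast markers rose in the same libraries, and their part was not tested.

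Ppp1r15a encodes GADD34, the stress-induced subunit that directs protein phosphatase 1 to eIF2α (ENSMUSG00000040435, chromosome 7, 45522916 to 45526268, minus strand of GRCm38). It measured 203, 255, 221, 273 and 224 CPM in PDPN-negative and 162, 163, 142, 176 and 171 CPM in PDPN-positive libraries. Again the groups did not overlap, and tumours 2 and 5 were the highest PDPN-negative libraries. The fold change was 0.692 (log2 -0.53 ± 0.09 SE, adjusted p in edgeR = 0.00162; at most 0.00567 over the alternatives run). Of the immediate early list above, 11 of 16 genes were lower beside it, with a list median of -0.61 on the log2 scale. Hspa1b and Hspa1a of that list had higher means, and the part of these genes was not tested.

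The transcription factors of this arm did not pass the test. Atf4 measured 215, 216, 241, 267 and 241 CPM in PDPN-negative and 217, 206, 207, 239 and 226 CPM in PDPN-positive libraries (log2 fold change -0.11 ± 0.07 SE, adjusted p in edgeR = 0.362). Ddit3, the gene of the pro-apoptotic factor CHOP, measured 17.0, 21.9, 21.0, 20.6 and 18.7 against 17.8, 15.9, 17.9, 16.3 and 15.6 CPM, lower in 4 of 5 tumours and higher in tumour 1. Its log2 fold change was -0.25 ± 0.08 (SE, adjusted p in edgeR = 0.0715, 0.0385 with the tumour as a block, and 0.0269 without PDPN-negative tumour 1). Ddit3 overlaps exons of Mars on the opposite strand, and the sources used here do not say whether counting used strand. Of the metabolic targets, Asns (asparagine synthetase) measured 6.39 ± 0.721 against 7.70 ± 1.67 CPM, Sesn2 (a leucine sensor) 37.9 ± 1.44 against 38.8 ± 2.36 CPM, and Chac1 (a glutathione-degrading enzyme) 0.638 ± 0.173 against 0.803 ± 0.449 CPM. None of these 3 passed the edgeR test (adjusted p = 0.262, 0.755 and 0.655). Chac1 rested on few reads, 45 counts over the PDPN-negative and 56 over the PDPN-positive libraries.

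The rest of the pathway was taken as 5 further lists. Of 126 tested genes, 14 were higher and 3 lower, beside 6.83% and 6.77% of all genes. Both directions together came to 13.5%, beside 13.6% of all genes (median log2 fold change 0.07). The log2 fold change was positive in 87 of the 126, beside 7007 of all 13595 genes tested. Blocking on the tumour gave 32 higher and 7 lower, beside 13.8% and 14.3% of all genes. In translocation and N-glycosylation, 2 of 22 were higher: Stt3b and Ddost, subunits of the oligosaccharyltransferase, at 145 ± 7.61 against 171 ± 4.65 CPM and 213 ± 8.74 against 248 ± 8.40 CPM (adjusted p in edgeR = 0.0100 and 0.0150). Of 31 other folding enzymes and chaperones, 5 were higher. Ero1l, the oxidase that recharges PDI, rose from 96.9 ± 13.3 to 171 ± 23.1 CPM (adjusted p in edgeR = 0.000299). Serpinh1, the collagen chaperone HSP47, rose from 5.64 ± 0.362 to 12.1 ± 1.44 CPM, and the prolyl isomerase genes Fkbp10 and Fkbp14 rose by 3.20 and 0.89 on the log2 scale from levels of 0.133 and 1.65 CPM (adjusted p in edgeR = 3.87e-05, 0.00202 and 0.0318). HSP47 and the product of Fkbp10 act on collagen, and collagen genes of the fibroblast list rose in the same libraries; that part was not tested.

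None of 22 other ERAD genes, Selenos (Vimp) among them, was called by edgeR (1 at an unadjusted p under 0.05, 0 by DESeq2). Nearest were Rnf139 and Selk, with log2 fold changes of -0.16 ± 0.07 and -0.15 ± 0.07 (SE, adjusted p in edgeR = 0.148 and 0.211). Among 17 other sensors, kinases, phosphatase subunits and proteases, 1 was higher and 1 lower. Ppp1r15b, the constitutive counterpart of Ppp1r15a, fell from 280.3 ± 20.9 to 223 ± 12.5 CPM, and Creb3l1, a relative of Atf6, rose from 1.05 ± 0.336 to 2.78 ± 0.663 CPM (adjusted p in edgeR = 0.00594 and 0.00342). Of 34 other genes of the ATF4 and CHOP arm, 6 were higher and 2 lower. Both directions together came to 23.5%, beside 13.6% of all genes. The fit that blocks on the tumour called 15 of them higher and 3 lower, beside 13.8% and 14.3% of all genes. Their log2 fold change was positive in 26 of 34, beside 7007 of all 13595 genes tested. Named below are the 4 called genes with the lowest p. Stc2 (a secreted glycoprotein) rose from 0.970 ± 0.182 to 3.03 ± 0.199 CPM and Sars (seryl-tRNA synthetase) from 98.0 ± 5.68 to 133 ± 7.18 CPM. Atf3, a stress transcription factor that is also an immediate early gene, fell from 704 ± 151 to 452 ± 17.2 CPM, and the pro-apoptotic gene Bcl2l11 from 194 ± 31.3 to 127 ± 18.4 CPM (adjusted p in edgeR = 0.000101, 0.000433, 0.00531 and 0.00595).

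**Figure D5:**
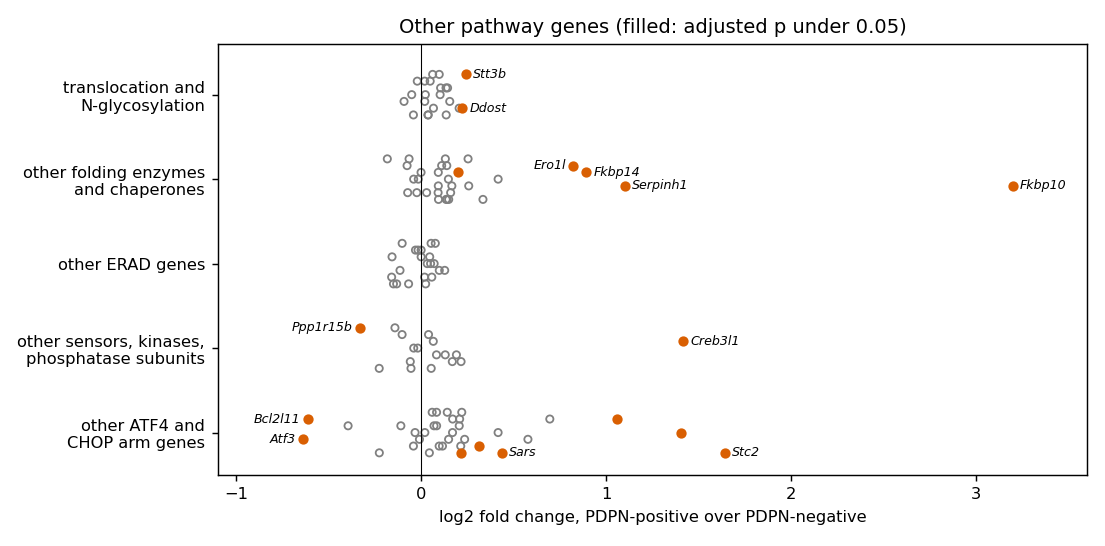
Log2 fold change (x axis) of the tested genes of 5 further pathway lists (y axis), 1 point a gene, spread vertically only to separate points. Filled points passed the edgeR test; the ERAD list has none, and Fkbp10 lies farthest to the right, from a level of 0.133 CPM.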

How the data were processed

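The authors deposited 1 table of raw counts per gene for the 10 libraries; the tools named in the submitters' processing notes are featureCounts 1.5.3, STAR 2.5.2b, Bowtie2 2.3.3.1 and cutadapt 1.15. The sources used here do not give their roles, the genome build, the strand setting or the handling of multi-mapping reads, so genes with pseudogene copies (Calr) or exons that overlap another gene (Ddit3, Manf, Hsp90b1, Eif2ak3, Syvn1, Pdia6, Pdia3, Ppp1r15a, Pdia4, Dnajb9) are uncertain. Pseudogenes were looked for only by name (the symbol of a member followed by -ps), so copies named otherwise could be missed. No molecular identifiers are stated for these SMART-Seq libraries. The test was that of edgeR 4.0.16 (R 4.3.3): filterByExpr by group (minimum count 10, total 15), TMM, robust quasi-likelihood fit with group as the only term, Benjamini-Hochberg adjustment over 13595 genes. The SE is the log2 fold change divided by the square root of F. Derl3, below the filter, was compared by exact permutation. Alternatives were RLE or no scaling, no filter, DESeq2 1.42.0, the tumour as a block, and leaving out libraries or tumours. The fit was also run on simulated counts without a tumour effect, so that run cannot check a fit that leaves out the pairing. Libraries of a tumour deviated together from their group means (correlations 0.257 to 0.552), so the numbers pair them. Members and lists were chosen with earlier results of these data known, and the immediate early list after seeing the data. All members are named; of each other pathway list up to 4 called genes by lowest p (2 where none), and of marker lists up to 2 by level (Cd79b, Sdc1 and the eosinophil genes at 0 were named after their values were seen). Of the marker lists not described in the report, 2 of 7 tested dendritic cell, 2 of 3 mast cell and basophil and 1 of 1 T and NK cell markers were lower, 1 of 6 endothelial markers was higher, 0 of 6 epithelial markers were called (edgeR; 2 at an unadjusted p under 0.05, 0 by DESeq2), and no plasmacytoid dendritic cell marker passed the filter. Positions are from GENCODE M21 (GRCm38), a build not stated for the counts; promoters are from RefSeq (GRCm38.p6).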

Additional observations from a re-analysis of the deposited data

Results flagged for a closer look

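Herpud1 was examined with the other members for single libraries far from the rest of their group. In the PDPN-positive fraction tumour 1 measured 81.2 CPM, and the other 4 libraries lay between 59.9 and 65.8 CPM; the gap to its neighbour took up 0.721 of the group's range. It was the only such case among the 68 groups of 5 values examined (34 members in 2 fractions). Chance alone flags about 1 in 20 of such groups, so 1 among 68 is no more than chance gives. Without that library the log2 fold change of Herpud1 was -0.61, against -0.53 with it.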

How the results depend on the processing

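The calls of P4hb, Pdia4, Trib3, Herpud1, Atf6 and Ppp1r15a held under all alternatives run. Of 692 values of members under the alternatives, 648 kept their direction and side of the threshold, 27 passed it where the reported fit did not, and 17, from 7 genes, changed sign. With the tumour as a block (pairing), 1880 of all genes were higher and 1950 lower, 7 members higher and 5 lower, and 32 other pathway genes higher and 7 lower, while the count of immediate early genes was 11 lower as before. DESeq2 with the block had 1219 of all genes higher and 1445 lower, 7 members higher and 3 lower, and 19 other pathway genes higher and 6 lower; Ern1 and Ddit3 were not called there (adjusted p = 0.126 and 0.143). Leaving out 1 library without the block, all genes higher ran from 617 to 1047 and lower from 576 to 1026; members higher stayed at 3, members lower ran from 3 to 4, and other pathway genes from 10 to 18 higher and 3 to 4 lower. The counts of all genes moved by over 1.5 times without PDPN-negative tumour 2 (576 lower) and without PDPN-positive tumour 4 (617 higher, 588 lower). Leaving out both libraries of a tumour with the block, they ran from 1360 to 1925 higher and 1380 to 2016 lower for all genes, 4 to 9 and 3 to 4 for members, and 20 to 38 and 5 to 8 for other pathway genes. In these fits the calls that the block adds were lost for Pdia6 without tumour 2 or 5, for Hsp90b1 and Calr without tumour 2, 4 or 5, for Ern1 without any tumour but 6 and for Ddit3 without any but 1, while Hyou1 and Ssr1 were called without tumour 6. The cause was not tested. The difference of Derl3 ran from 0.333 to 0.572 CPM with 1 library left out, and was 0.485 CPM in the paired test, whose smallest p cannot pass the threshold. Log2 fold changes near 0 changed sign when a library or tumour was left out: Dnajb9 from -0.14 to 0.021, Edem1 from -0.046 to 0.025, Hspa5 from -0.013 to 0.050, Manf from -0.0099 to 0.046, Sec61b from -0.10 to 0.075, Sesn2 from -0.013 to 0.064, Selenos (Vimp) from -0.031 to 0.055 and Xbp1 from -0.022 to 0.057. None of these passed the test. Depth limits Derl3 and Chac1, with about 1 CPM or less.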
